A study of Paxillus involutus with 18 samples.

Results

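On the hot-water extract of maize compost (MH), 125 of the 12214 isotigs of *Pa. involutus* on the array, or 1.02%, were lower than in the mineral medium MMN by at least 0.9 on the log2 scale, while none of the other media tested lowered them by more than 0.5. An isotig is an assembled transcript, and a change is the mean of the 3 arrays of a medium minus the mean of the 3 MMN arrays of the same slide. The members were chosen on these changes: an MH change of -0.9 or less, and changes of -0.5 or more on the hot-water extract of forest litter (FH), on the cold-water extract of maize compost (MC) and on carboxy methyl cellulose (CMC). A log2 change of -0.9 is just under a 2-fold reduction. Because the changes on all 4 media were used in the choice, they are given as a description, and no test of them is taken as support.

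All cultures were mycelium of the wild type strain ATCC 200175, a single strain, grown for 9 days in MMN and then deprived of N for 24 h. They were held for another 7 days in FH, MH, MC or CMC, each supplemented with glucose, or kept in MMN as the control. The extracts had been filtered at 0.2 µm, and their low molecular weight compounds had been removed with an ultrafilter of 10 kDa cut-off. Slide 1 carried 3 arrays each of MMN, FH and MH, and slide 2 carried 3 arrays each of MMN, MC and CMC. The MMN arrays of the slides carry the same replicate numbers, and whether they hold the same cultures is not stated. The replicates are called biological without naming the step at which they were separated.

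*Pa. involutus* is an ectomycorrhizal fungus, which receives sugar from the roots of its host tree and takes up N from the soil for both partners. Much of the N in forest soil and compost is bound in organic matter, while MMN offers ammonium as a simple N source. A mycelium moved from such a medium to an extract therefore meets N and C in other chemical forms, and transcripts that are lower on the extract than in MMN are those the fungus holds at a higher level in the mineral medium. The files give no name, function or sequence for any isotig, so the isotigs are described by their identifiers and values, and the mycelium could not be set against marker genes. All 125 isotigs had 10 probes each. Levels of different isotigs rest on different probes, so a brighter isotig is not thereby a more abundant transcript.

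Array medians lay between 11.45 and 11.47 on the log2 scale and the random control probes between 3.69 and 3.85, against 9.44 to 14.06 for the MMN means of the 125 isotigs. MC replicate 3 was labelled in 2 ways, as MC in its title and medium but as MH in a free description, and was treated as MC.

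The largest reduction on MH was that of paxillus_12237. Its log2 expression was 13.43, 13.41 and 13.30 on the MMN arrays of slide 1, 12.78, 12.96 and 13.01 on FH and 12.47, 12.17 and 12.00 on MH. On slide 2 it was 13.14, 13.22 and 13.15 in MMN, 12.81, 12.66 and 12.66 on MC and 13.00, 12.61 and 12.77 on CMC. The 3 MH arrays lay below all other arrays, and the FH, MC and CMC arrays all lay between MH and the MMN arrays of their slide. Its MH change was -1.17 ± 0.10 (standard error of the linear model, n = 3 against 3), a 2.25-fold lower level. Its changes on FH, MC and CMC were -0.46, -0.46 and -0.37, so that the other media showed 31.9% to 39.6% of its MH change. The RNA came from whole mycelium and the arrays were brought to one distribution, so that less of a transcript per cell and fewer cells that hold it cannot be told apart.

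The isotig with the next largest reduction, paxillus_6758, followed the same pattern. It had 10.26, 10.26 and 10.05 in MMN on slide 1, 10.00, 9.81 and 10.01 on FH and 9.37, 8.93 and 8.83 on MH. On slide 2 it had 9.93, 10.03 and 9.84 in MMN, 9.69, 9.64 and 9.48 on MC and 9.66, 9.54 and 9.70 on CMC. The MH arrays were again the lowest of all, while its highest FH value of 10.01 lay just below its lowest MMN value on slide 1, of 10.05. Its change was -1.15 ± 0.11 on MH, -0.25 on FH, -0.32 on MC and -0.30 on CMC.

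**Figure D1:**
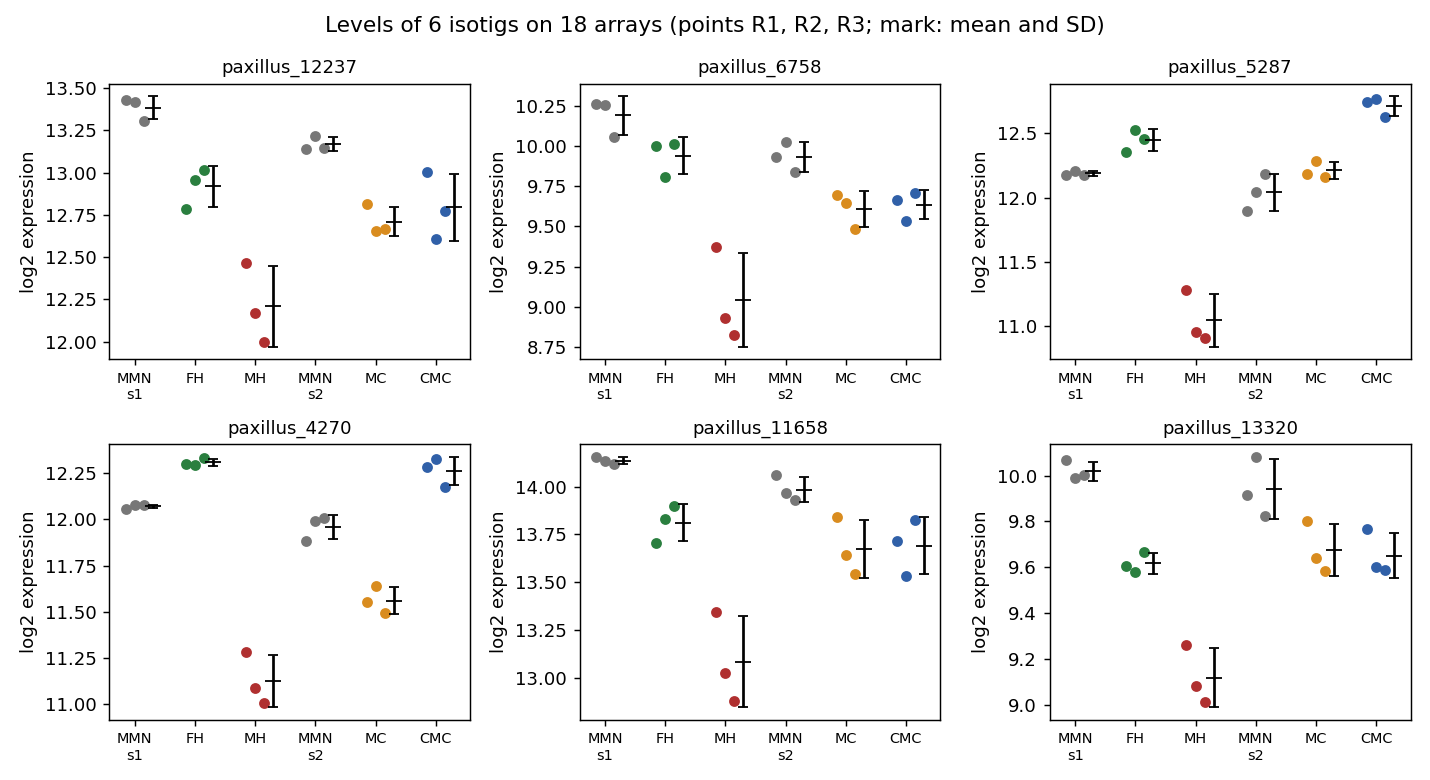
Log2 expression of 6 isotigs on each of the 18 arrays, by medium and slide (s1, s2: slides 1 and 2), with the mean and SD of each group of 3. In all 6 panels the 3 MH arrays lie lowest, and in all but paxillus_5287 and paxillus_4270 the FH, MC and CMC means lie between MH and MMN.

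A reduction on MH alone held for 1 isotig when read strictly. Of the 125 isotigs, 123 had a change below 0 on all 4 media, where 41.3% of all isotigs did, and in 116 all 3 changes outside MH lay between -0.5 and -0.2. Only paxillus_5287 had changes of -0.2 or more on FH, MC and CMC alike. The median change of the 125 isotigs was -0.96 on MH, with a range of -1.17 to -0.90. It was -0.33 on FH (from -0.49 to 0.26), -0.36 on MC (from -0.49 to 0.17) and -0.32 on CMC (from -0.49 to 0.67), where the medians of all isotigs were -0.06 on FH and MH and -0.07 on MC and CMC. The isotigs are therefore called here by their rule, as lowered by at least 0.9 on MH and by no more than 0.5 elsewhere, rather than as lowered on MH only.

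Set against the MH change of the same isotig, the median change was 33.8% on FH, 38.0% on MC and 32.9% on CMC, and in 119 isotigs each of the 3 stayed under 50% of it. The lowest change outside MH was that on MC in 67 isotigs, on FH in 33 and on CMC in 25. The FH and MH changes share their MMN arrays, as do the MC and CMC changes. The 657 isotigs with an MH change above -0.9 and up to -0.7, chosen with no limit on the other media, had medians of -0.27 on FH, -0.35 on MC and -0.30 on CMC, which were 34.9%, 43.8% and 38.2% of their MH changes. In the 134 isotigs that reached -0.9 on MH but missed the other limits they were 49.0%, 79.9% and 62.8%. The limits of the rule bound these proportions in the 125 isotigs, so no comparison of the sets is drawn from them.

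**Figure D2:**
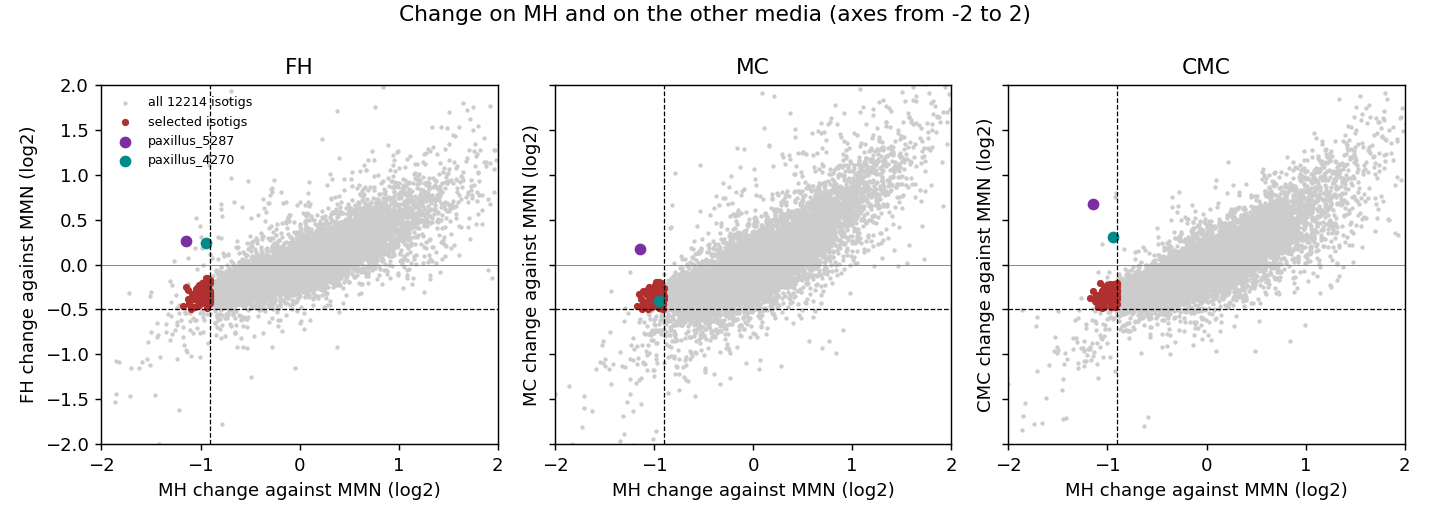
Change of each isotig against MMN on MH (horizontal, log2) and on FH, MC or CMC (vertical, log2), with the limits of the rule dashed and both axes cut at -2 and 2. Most of the selected isotigs (116 of 125) lie between -0.5 and -0.2 on all 3 vertical axes, and paxillus_5287 and paxillus_4270 lie above them on FH and CMC.

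A linear model over all 18 arrays (limma) called 42 of the 125 isotigs lower on MH by over 2-fold, at a Benjamini-Hochberg adjusted p under 0.01, where 1.19% of all isotigs were called. These 42 are the isotigs with an MH change of -1 or less, of which 7 reached -1.1. At an adjusted p under 0.01 with no limit on the change, all 125 were lower on MH (37.6% of all isotigs), 70 on FH (16.9%), 93 on MC (28.3%) and 78 on CMC (21.8%), and 50 were lower on all 4 media (9.48%). None was called 2-fold lower on FH (0.303% of all isotigs), MC (0.835%) or CMC (0.352%), which the rule did not allow, and none was called 2-fold higher on FH (0.966% of all isotigs), MC (2.81%) or CMC (1.66%). With no limit on the change, 1 was higher on FH (16.5%), 0 on MC (21%) and 2 on CMC (19%). At an unadjusted p under 0.05 these counts of higher isotigs were 2, 0 and 2, where 23.5%, 25.9% and 25.1% of all isotigs passed. Without MH replicate 1 the model called 109 of the 125 isotigs lower by over 2-fold, and without MH replicate 3 it called 7. Over all 12214 isotigs the same calls numbered 145 with all arrays and 239 without MH replicate 1. With any 1 array left out the fewest were 100.

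Read by array, the 3 MH arrays lay below all 3 MMN arrays of slide 1 in all 125 isotigs (42.8% of all isotigs) and below all 15 other arrays in 97 (17.1%). The FH arrays lay below their MMN arrays in 119 isotigs (33%), the MC arrays in 119 (40.2%) and the CMC arrays in 117 (38.7%). They lay above all MMN arrays of their slide in 2 isotigs on FH (23%), 0 on MC (26.3%) and 2 on CMC (25.8%).

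**Figure D3:**
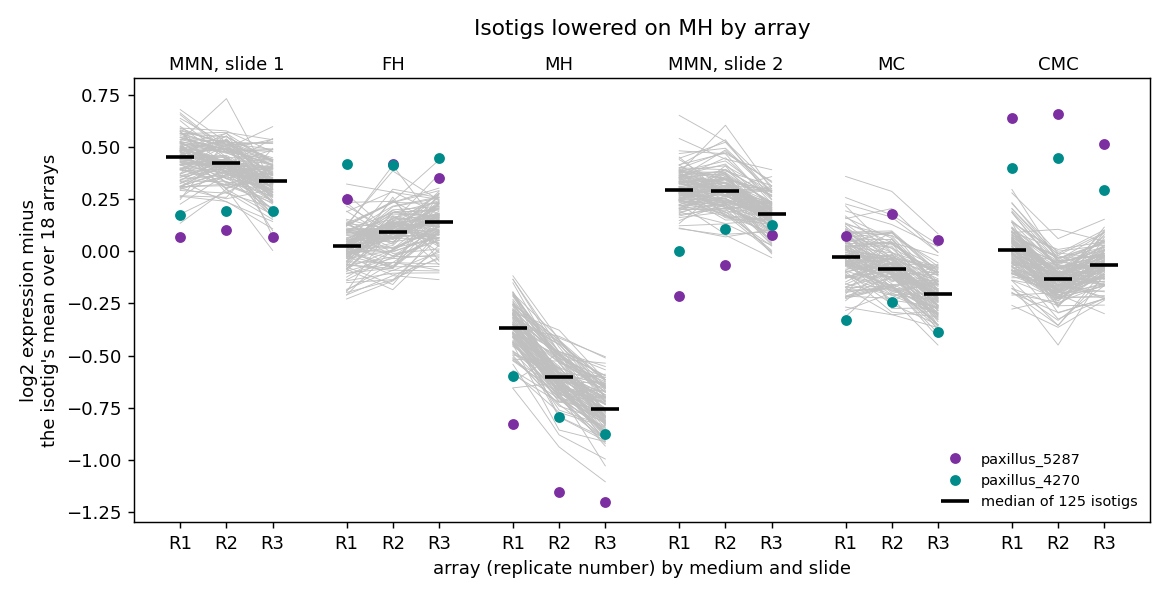
Log2 expression of the 125 isotigs on each array, minus the mean of the isotig over the 18 arrays (grey lines join the replicates of a medium, black bars are medians over the isotigs). The medians on the 3 MH arrays are -0.37, -0.60 and -0.76, below those of all other arrays, and paxillus_5287 and paxillus_4270 leave the other isotigs on FH and CMC.

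The 2 isotigs that departed from the rest were paxillus_5287 and paxillus_4270. Paxillus_5287 had 12.18, 12.21 and 12.18 in MMN on slide 1, 12.36, 12.53 and 12.46 on FH and 11.28, 10.95 and 10.90 on MH. On slide 2 it had 11.90, 12.04 and 12.19 in MMN, 12.18, 12.29 and 12.16 on MC and 12.75, 12.77 and 12.62 on CMC. All FH and CMC arrays lay above the MMN arrays of their slide, the MC arrays overlapped with MMN, and the MH arrays were lowest. Its changes were -1.14 on MH, 0.26 on FH, 0.17 on MC and 0.67 on CMC, each with a standard error of 0.09.

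Paxillus_4270 had 12.06, 12.08 and 12.08 in MMN on slide 1, 12.30, 12.30 and 12.33 on FH and 11.28, 11.08 and 11.00 on MH. On slide 2 it had 11.88, 11.99 and 12.01 in MMN, 11.55, 11.64 and 11.49 on MC and 12.28, 12.33 and 12.18 on CMC. It was above MMN on FH and CMC and below MMN on both compost extracts, with no overlap in any of these cases. Its changes were -0.95 on MH, 0.24 on FH, -0.40 on MC and 0.30 on CMC, each with a standard error of 0.06. After paxillus_5287, the highest MC change was the -0.19 of paxillus_12518, whose other changes were -0.95 on MH, -0.38 on FH and -0.24 on CMC.

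The profiles of the 125 isotigs over the 18 arrays were alike, which the choice by common limits favours. Pearson's r between pairs of isotigs had a median of 0.93 over 7750 pairs, with the middle of the pairs from 0.89 to 0.96 and a lowest value of 0.30. All of these points share the arrays and media. The median r with the other isotigs was lowest for paxillus_5287, at 0.59, and paxillus_4270, at 0.69, followed by paxillus_10617, at 0.78, which was singled out after its values were seen. In paxillus_10617 the MMN arrays read 13.26, 13.42 and 13.13 on slide 1 and 13.78, 13.65 and 13.44 on slide 2, so that its MMN mean was lower on slide 1 by 0.35, and its MH arrays read 12.46, 12.18 and 12.02.

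Of all isotigs on the array, the profile most like that of paxillus_12237 was that of paxillus_12311, with r = 0.99 over 18 arrays. Paxillus_12311 missed the rule with an MH change of -0.89. The isotigs next in likeness, paxillus_12631 and paxillus_12498, both with r = 0.98, are among the 125. For the pair that departed from the rest, likeness was looked up after their values were seen. Paxillus_4270 was most like paxillus_4272 (r = 0.98), which had changes of -1.06 on MH, 0.18 on FH and 0.23 on CMC and missed the rule with an MC change of -0.54. Paxillus_5287 was most like paxillus_10054 (r = 0.92), with an MH change of -0.44.

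The 12 largest reductions ran from -1.17 to -1.07. After paxillus_12237, paxillus_6758 and paxillus_5287 came paxillus_12133 (-1.13), paxillus_12355 (-1.12), paxillus_11061 (-1.12), paxillus_10411 (-1.11), paxillus_11458 (-1.09), paxillus_12308 (-1.08), paxillus_13130 (-1.08), paxillus_12294 (-1.08) and paxillus_12498 (-1.07). Differences of this size between neighbours are smaller than their standard errors of 0.09 to 0.12, so their order is not resolved. In each of these 9 the changes on FH, MC and CMC lay between -0.49 and -0.29. Paxillus_12308 may serve as an example, with 13.39, 13.26 and 13.12 in MMN of slide 1, 12.86, 12.95 and 12.97 on FH and 12.37, 12.18 and 11.97 on MH.

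Many of the 125 isotigs lay close to a limit of the rule. The MH change was above -0.95 in 54 isotigs, from there to -1.0 in 29 and from there to -1.1 in 35. Just inside the MH limit were paxillus_13320, paxillus_6518 and paxillus_11877, all at -0.90, and just outside were paxillus_13312, paxillus_6427 and paxillus_11146, which also round to -0.90. Paxillus_13320 had 10.07, 9.99 and 10.00 in MMN of slide 1 and 9.26, 9.08 and 9.01 on MH. These 6 isotigs differed by less than the standard error of any of them.

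On FH, paxillus_11458 (-0.49) and paxillus_3516 (-0.48) lay just inside the limit of -0.5 and paxillus_11569 (-0.55) was the only isotig that missed the rule on FH alone. On MC, paxillus_11994 and paxillus_9422 lay inside at -0.49, and paxillus_3534 (-0.50) and paxillus_4601 (-0.51) were the nearest outside. On CMC, paxillus_11912 (-0.49) and paxillus_10446 lay nearest inside, and paxillus_7949 was the only isotig that missed on CMC alone, with changes of -1.04 on MH, 0.52 on FH, -0.34 on MC and -1.02 on CMC. In all, 259 isotigs (2.12%) had an MH change of -0.9 or less. Of the 134 that were not selected, 129 were below -0.5 on MC (4.49% of all isotigs), 99 on CMC (2.15%) and 78 on FH (1.27%), and 68 were so on all 3. Their median changes were -1.15 on MH, -1.04 on MC, -0.73 on CMC and -0.56 on FH. They were left out for these very changes, and the order of MC, CMC and FH in the counts below -0.5 is the same over all isotigs.

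The MMN means of the 125 isotigs, which say how bright the probes were, ran from 9.44 to 14.06, against 2.40 to 14.96 over all isotigs. At the upper end, paxillus_11658 had 14.16, 14.14 and 14.12 on slide 1 and 14.06, 13.97 and 13.93 on slide 2, against 13.34, 13.02 and 12.88 on MH. Paxillus_6365 had an MMN mean of 13.93. At the lower end were paxillus_6518, with an MMN mean of 9.44, and paxillus_6517, with 9.55. The MH changes of these 4 were -1.05, -0.93, -0.90 and -0.95, and their MMN means lay above the control probes.

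The MH arrays of these isotigs spread more than those of any other group. The SD over the 3 MH arrays had a median of 0.20 over the 125 isotigs, against 0.07 over all isotigs. In the 657 isotigs with an MH change above -0.9 and up to -0.7 it was 0.14. The median SD of the 125 was 0.10 on MC and 0.08 on CMC, above the all-isotig medians of 0.07 and 0.06. It was 0.07 to 0.08 on FH and in MMN, as over all isotigs. The widest were those of paxillus_13309 and paxillus_13595, with 11.48, 11.02 and 10.80 and 10.11, 9.76 and 9.43 on MH.

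The spread ran the same way in nearly all isotigs. MH replicate 1 was the highest MH array in 123 of the 125 isotigs (39% of all isotigs) and replicate 3 the lowest in 119 (36.2%). The median change against the MMN mean of slide 1 was -0.77 in replicate 1, -0.99 in replicate 2 and -1.15 in replicate 3. In the 657 isotigs just short of the MH limit it was -0.64, -0.79 and -0.91, so this order was not particular to the 125. Over all isotigs the SD of the MH change was 0.50, 0.56 and 0.59 in replicates 1, 2 and 3. A change of -0.9 or less was reached by 4 of the 125 in replicate 1 (0.925% of all isotigs). It was reached by 119 in replicate 2 (2.53%) and by 125 in replicate 3 (4.95%). One of -0.5 or less was reached by all 125 in each, where 13.2%, 18.1% and 19.9% of all isotigs did. The isotigs were chosen on the mean of these arrays, so the counts in part restate the rule. The size of the reduction in these isotigs, but not its direction, thus differed between MH replicates. Without MH replicate 1 the rule gave 287 isotigs, 124 of them among the 125, and without MH replicate 3 it gave 41, all among the 125. The part of this spread in the choice of the isotigs was not tested further.

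In the other groups the isotigs also moved together from array to array, by less. In MMN replicate 3, 110 of the 125 isotigs lay below their group mean on slide 1 and 119 on slide 2, while 53.4% and 55.1% of all isotigs did. In FH replicate 1 there were 103 and in CMC replicate 2 there were 115, against 47.1% and 50.4% of all isotigs. The median deviation on these arrays was between -0.06 and -0.08. In MC replicate 3 there were 119, against 51.8% of all isotigs, with a median deviation of -0.10. Over all isotigs the median deviation of each array lay between -0.01 and 0.01. The arrays were brought to one distribution, which largely fixes this median, so it does not show whether whole arrays differed. Over all isotigs the SD of the change against MMN was 0.34, 0.33 and 0.31 in FH replicates 1, 2 and 3. It was 0.34, 0.38 and 0.35 in CMC replicates 1, 2 and 3, and 0.41, 0.44 and 0.46 in those of MC. FH replicate 1, CMC replicate 2 and MC replicate 3 were thus the widest of their groups, and the cause was not tested.

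MC replicate 3, the array whose description names MH, was the lowest MC array in 109 of the 125 isotigs (35.2% of all isotigs). Its median change was -0.47, against -0.27 and -0.33 in MC replicates 1 and 2. It lay above all 3 MH arrays in 99 isotigs (38.2%), and its median change did not reach that of any MH array. The rule counted this array as MC, which favours a place above MH, and MC and MH lie on different slides. These values therefore do not tell which medium the array holds. Without it, 130 isotigs met the rule, 124 of them among the 125.

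To read the MH change in arrays not used in picking the isotigs, the same rule was applied to 2 replicate numbers of every group. The isotigs so chosen were read in the number left out. The medium and limits of the rule were set with results of all arrays known, so these readings are a description. Each reading is 1 array against 1 array of MMN, so no test was made. With number 1 left out, 246 isotigs were chosen, of which 119 are among the 125. Their median MH change in number 1 was -0.74, all 246 were below 0 (56.4% of all isotigs), and 9 were at -0.9 or less (1.01%). With number 2 left out, 106 were chosen, 94 of them among the 125, with a median of -1.0, all below 0 (54.7%), and 89 at -0.9 or less (3.12%). With number 3 left out, 53 were chosen, 49 of them among the 125, with a median of -1.10, all below 0 (53.0%), and 51 at -0.9 or less (4.09%). The isotigs so chosen were thus lower on MH in each number left out, while in number 1 few of them reached the limit. These isotigs vary together over the arrays, so their counts are not separate observations.

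Outside MH the medians varied between the numbers left out, on FH and CMC by more than on MC. On FH the medians were -0.39, -0.32 and -0.15 for numbers 1, 2 and 3. On MC they were -0.32, -0.37 and -0.39, and on CMC -0.28, -0.43 and -0.21. The changes were below 0 in 243 of 246, 103 of 106 and 49 of 53 isotigs on FH (55.9%, 57.5% and 57.4% of all isotigs), and in 240 of 246, 105 of 106 and 53 of 53 on MC (58.4%, 59.1% and 58.1%). On CMC they were below 0 in 244 of 246, 104 of 106 and 51 of 53 (58.9%, 58.4% and 56.9%). All medians of all isotigs in these readings lay between -0.09 and -0.04. The whole rule was met in the number left out by 2 of 246 isotigs (0.0491% of all isotigs), 57 of 106 (1.28%) and 46 of 53 (2.48%).

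**Figure D4:**
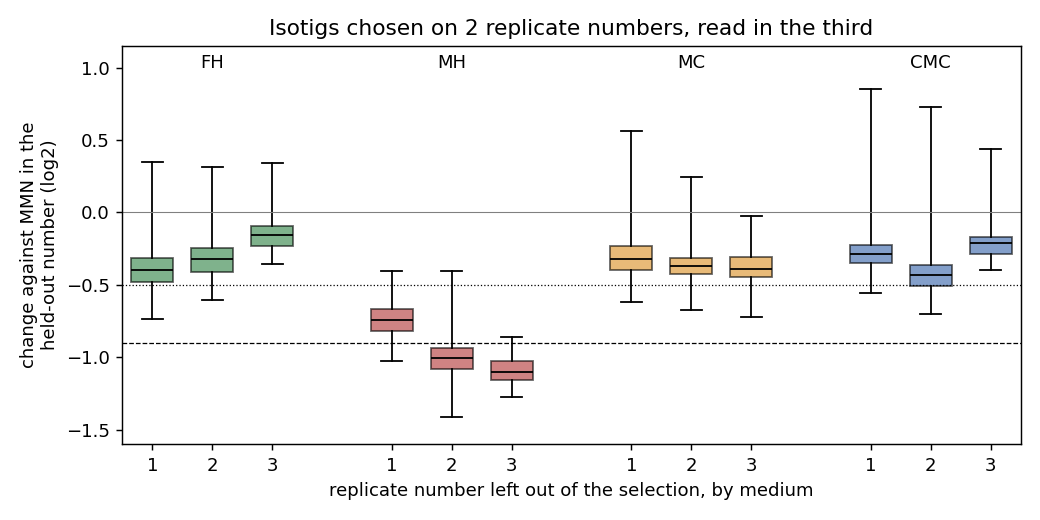
Change against MMN (log2) in the replicate number that was left out when the isotigs were chosen on the other numbers (boxes: quartiles and median, whiskers: lowest and highest, n = 246, 106 and 53 for numbers 1, 2 and 3). The MH medians are -0.74, -1.0 and -1.10, and those of FH, MC and CMC lie between -0.43 and -0.15.

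The MMN arrays themselves differed between slides in these isotigs. The MMN mean of slide 1 was above that of slide 2 in 106 of the 125 isotigs, by a median of 0.15, while over all isotigs it was above in 53.7% and the median was 0.02. Both MMN means were part of the rule, the first as the control of MH and the second as the control of MC and CMC. A high MMN level on slide 1 lowers the MH change, and a low one on slide 2 raises the MC and CMC changes. The rule thus favours this direction. The median was 0.07 in the 657 isotigs with an MH change above -0.9 and up to -0.7. It was -0.06 in the 134 that reached -0.9 but missed the other limits. The MMN arrays of slide 2 did not enter the MH change, but arrays of the same number deviated together on both slides, so the 6 MMN arrays may hold only 3 cultures. Against the MMN arrays of slide 2, the MH change of the 125 isotigs had a median of -0.84 and a range of -1.40 to -0.51. All 125 were at -0.5 or less and 37 at -0.9 or less, where 2.1% of all isotigs were at -0.9 or less. The MH arrays lay below all 6 MMN arrays in all 125 isotigs (37.7% of all isotigs). Of the 12 largest reductions, paxillus_10411 had a larger change against slide 2, of -1.23, and paxillus_12133 a smaller one, of -0.84. With the MMN arrays averaged per replicate number over both slides as the control of every medium, 66 isotigs met the rule, 52 of them among the 125. The part of the slide in the choice of the isotigs was not tested otherwise.

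Identifier numbers were not spread evenly. The numbers 11001 to 13000 held 62 of the 125 isotigs, or 49.6%, and 16.3% of all isotigs, and 6001 to 7000 held another 18, or 14.4%, against 8.11%. From 7001 to 10000 there were 5, among 3000 isotigs. The blocks of numbers were drawn up after the values were seen. All isotigs from 11001 to 13000 had a median MH change of -0.34, and medians of -0.17 on FH, -0.21 on MC and -0.19 on CMC, while the median MH change from 7001 to 10000 was 0.13. The isotigs among which the 125 were frequent were thus lower on MH as a whole. What the order of the numbers stands for is not given in the sources used here.

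**Figure D5:**
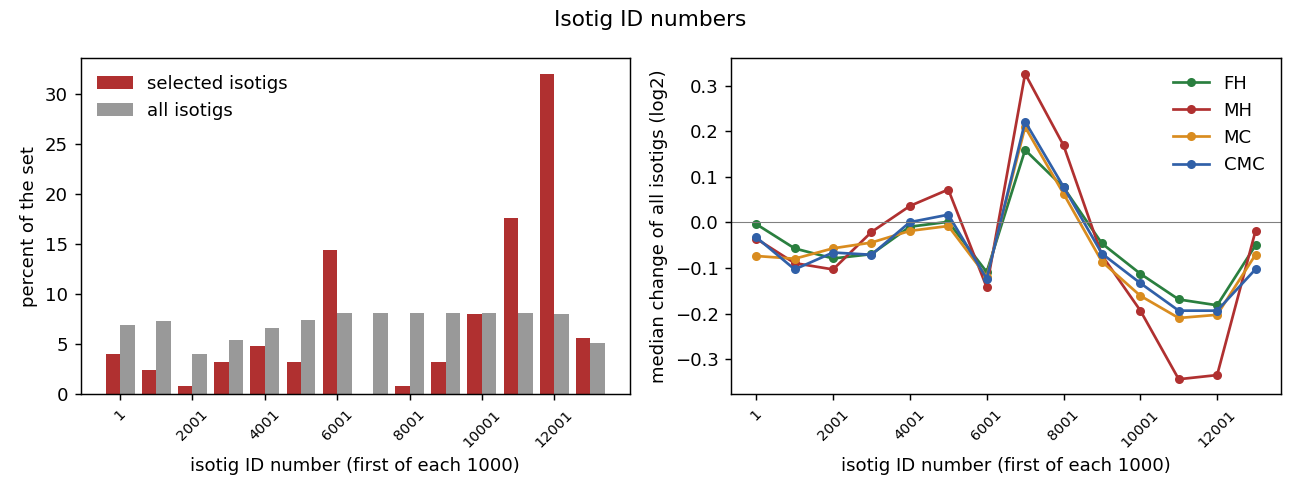
Share of the 125 selected isotigs and of all isotigs in each block of 1000 identifier numbers (left, percent), and the median change of all isotigs of the block on each medium against MMN (right, log2). The blocks from 11001 and 12001 hold 17.6% and 32.0% of the selected isotigs and have the lowest median MH changes, -0.34 over both.

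Directly consecutive identifiers made up 7 pairs, or 14 of the 125 isotigs: paxillus_204 and paxillus_205, paxillus_4477 and paxillus_4478, paxillus_6365 and paxillus_6366, paxillus_6517 and paxillus_6518, paxillus_12605 and paxillus_12606, paxillus_12630 and paxillus_12631, and paxillus_12710 and paxillus_12711. Splice variants of one gene share sequence and are not independent of each other, and the assignment of isotigs to genes was not used here. Within the pairs r over the 18 arrays was 0.94 to 0.97, close to the median of 0.93 between any of the 125. The MH changes of paxillus_6517 and paxillus_6518 were -0.95 and -0.90, and their MH arrays read 8.94, 8.72 and 8.53 and 8.83, 8.54 and 8.48. In paxillus_12710 and paxillus_12711 they were -1.02 and -0.92, and in paxillus_12630 and paxillus_12631 they were -0.93 and -1.03.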

How the data were processed

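Gene expression of *Pa. involutus* mycelium was measured on 18 one-colour NimbleGen arrays, 3 for each of 6 groups. The authors deposited 1 log2 value per isotig and array made with RMA, which corrects the background, normalizes between arrays and summarises probes. The RMA version is not given in the sources used here, and the log base, which the files do not state, was taken as log2, as RMA gives it. The series table matched the array files with a largest difference of 0. A row of 10000 random control probes was left out of the fits. Changes were taken against the MMN arrays of the same slide. Deviations of MMN arrays from their group means correlated between the slides at 0.255, 0.451 and 0.495 for the same replicate number, each array highest with its own number, so the slides were treated as possibly sharing 3 MMN cultures, which the labels do not state. The standard error that the authors deposited beside each value, a score of unstated scale, was not used.

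All isotigs were fitted with limma 3.58.1 in R 4.3.3 (lmFit and eBayes, 6 group means, 12 residual degrees of freedom with a prior of 5.35), and p-values were adjusted over 12214 isotigs by Benjamini-Hochberg. The number of arrays limits the precision, so that p-values reflect only how these arrays spread. The isotigs and the rules of naming were chosen with earlier results of these data known.

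Named were the 12 isotigs with the largest reduction on MH, those nearest to each limit on either side, those with the highest change on FH, MC or CMC, the highest and lowest MMN means, the widest SD on MH, directly consecutive identifiers and the 3 profiles most like that of the largest reduction. No isotig matched the reference gene table, so gene lists by keyword were not run. Alternatives were other normalizations, filters, controls, limits and thresholds, a block for replicate number or culture, and leaving out each array.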

Additional observations from a re-analysis of the deposited data

Results flagged for a closer look

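In paxillus_5287 the 3 arrays of FH and of CMC all lay above the MMN arrays of their slide, with changes of 0.26 and 0.67 on the log2 scale, while all 3 MH arrays lay below MMN. In paxillus_4270 the same held, with changes of 0.24 on FH and 0.30 on CMC. In both isotigs every FH and CMC array thus stood on the opposite side of MMN from every MH array. The difference between the media was not tested, because the isotigs were chosen on these changes. CMC and MH lie on different slides, and each was read against the MMN arrays of its own slide.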

How the results depend on the processing

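The number of isotigs that met the rule moved from 125 to 66 with the MMN arrays averaged over both slides (52 shared), to 42 with an MH limit of -1, and to 12 with a limit of -0.3 on FH, MC and CMC. With limits of -0.2 and of 0 on those media, chosen after seeing the data, it was 1 and 1. Leaving out 1 array gave 41 (without MH replicate 3) to 287 (without MH replicate 1). It stayed between 96 and 155 under a repeated quantile normalization (96, of which 76 shared), centring on the common median (107), no dim isotigs (97), arithmetic means (118), medians of 3 arrays (155, of which 108 shared) and limits of -0.5 and 0.5 (124). The cause of these shifts was not tested.

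Of the 125 isotigs, 42 were called lower on MH by over 2-fold, and 19 with averaged MMN. With no limit on the change it was 125 (37.6% of all isotigs). Leaving out 1 array gave 7 (without MH replicate 3) to 109 (without MH replicate 1), where 100 to 239 of all isotigs were called. A repeated quantile normalization gave 40 (26 of them among the 42), centring 32 and the removal of dim isotigs 33. For averaged MMN and these last alternatives the share over all isotigs was not counted. With no limit on the change, the isotigs called higher on FH, MC or CMC went from 0 to 2. The median MH change stayed between -1.07 and -0.88 with 1 array left out. Of 1015 values of 38 named isotigs under these alternatives, none changed direction, 38 lost the 2-fold call and 15 gained it. These isotigs were chosen for an MH change of -0.9 or less, so a change of direction was hardly possible. FH, MC, CMC and slide 2 MMN arrays do not enter the MH change, so leaving 1 of them out could not alter it. The MH changes of the 125 run from -1.17 to -0.90, on both sides of the 2-fold threshold.

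The labels tie no replicate number to a culture shared by media. With the number as a block 42 of the 125 isotigs were called lower on MH, and with a random block for MMN arrays of one number (correlation 0.53) also 42. All 125 were at an adjusted p under 0.01 in the main fit, so this count rests on the size of the MH change. A block leaves that size as it was in this balanced design, so the count could hardly move. It therefore does not tell whether cultures were shared, and the share over all isotigs was not counted. Same-numbered MH and MMN arrays of slide 1 had deviations with r of 0.19, 0.03 and 0.08, each array highest with its own number, while FH, MC and CMC did not show this throughout.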
